A study of Mus musculus with 4 samples.

Results

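BAF complexes are remodellers that use the energy of ATP to slide or evict nucleosomes, and they are built in 3 forms around a shared core. The genes that set the forms apart were followed here across female mouse embryonic stem cells (mESCs) before and after differentiation and after knockdown of the core ATPase Smarca4. The set holds 10 of the 25965 genes in the deposited table, chosen by name from the known make-up of the complexes: Arid1a, Arid1b, Dpf1, Dpf2 and Dpf3 for canonical BAF, Arid2, Pbrm1, Brd7 and Phf10 for PBAF, and Brd9 for non-canonical BAF (ncBAF). All 10 were found in the table, and 9 had a mean log2 CPM (reads scaled to the library's total, on the log2 scale) of at least 0 over the 4 libraries. Dpf3 did not.

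RNA-seq was performed on 4 libraries of mESCs derived from F1 embryos of FVB dams and CAST sires, with 1 library for each group. Undifferentiated cells grown in 2i medium gave the day 0 library. The other libraries came from cells weaned into DME HiHi medium, transduced with a retroviral short hairpin RNA on day 2, selected with puromycin on day 3 and harvested on day 6. Their hairpins were a non-silencing control (Nons) or, for knockdown of Smarca4, either of a pair named Smarca4.4 and Smarca4.6. The day 0 library precedes the transduction, so days in differentiation medium cannot be told apart from transduction and selection when Nons is set against day 0. The genotype field of the labels reads Smarcc knockdown for every day 6 library, Nons included, and a nonsilencing control at day 0, and groups were taken from the titles. Whether the libraries came from 1 cell line or several is not given in the sources used here. Since every group is a single library, no difference could be checked against replicates, and the 95% intervals given cover the counting of reads only.

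Canonical BAF carries an ARID1 subunit, which binds DNA and holds the complex together, and a DPF subunit, whose paired PHD fingers read acetylated histone tails. PBAF carries Arid2, Pbrm1, Brd7 and Phf10 in their place, and ncBAF has Brd9 and neither an ARID subunit nor Smarcb1. Pluripotent cells are known for an esBAF built with Arid1a, and neurons for an nBAF that takes up Dpf1 or Dpf3.

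The guide strands of the 3 hairpins are shown because every day 6 comparison rests on them. Each was read as the bases that follow the loop of the listed hairpin, with the seed, bases 2 to 8, in capitals, and below them stand the stretches of Smarca4 that pair with the guides.
Nons guide: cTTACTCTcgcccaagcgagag
Smarca4.4 guide: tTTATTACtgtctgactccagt
Smarca4.6 guide: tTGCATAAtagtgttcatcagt
Smarca4.4 target, chr9:21703327-21703348, plus strand: actggagtcagacagtaataaa
Smarca4.6 target, chr9:21670504-21670525, plus strand: actgatgaacactattatgcaa
Both targets match over all 22 bases (GENCODE annotation on GRCm38, the same assembly as mm10). The Smarca4.4 target lies in the 3′ UTR, in exon 34, and is present in 3 of the 4 annotated Smarca4 transcripts. The Smarca4.6 target lies in the coding sequence, in exon 22, and is present in 4 of 4. No other annotated gene had a full match to either guide. A 7-base match to the Smarca4.4 seed occurred once in the 3′ UTR of each of Arid1a, Pbrm1 and Phf10, where 12.1% of 11261 genes held one, and the Smarca4.6 seed was matched once in that of Arid1a, where 9.35% did. The Nons seed was matched in the 3′ UTRs of Phf10 and Dpf2, against 10.5% of genes.

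Smarca4, the ATPase that the hairpins target, was measured at 7.93 log2 CPM at day 0 and 7.84 with Nons, and at 7.04 with Smarca4.4 against 7.44 with Smarca4.6. Both knockdown libraries were below Nons and day 0, with Smarca4.4 at 57.3% of Nons and Smarca4.6 at 75.8%. The differences from Nons were -0.80 (95% interval -0.85 to -0.76) and -0.40 (-0.44 to -0.35) on the log2 scale. Between 18599402 reads (day 0) and 47143727 reads (Smarca4.4) stood behind each library. All 8 pluripotency markers were detected in each library, and their summed level was 3430 CPM at day 0 and between 831 and 1107 CPM at day 6. Most of the day 6 sum was Pou5f1, which was 0.34 higher on the log2 scale in Nons than at day 0 (915 CPM in Nons). The other 7 were lower, by log2 differences from -2.66 (Dppa3) to -7.71 (Prdm14). The 6 markers of smooth muscle and fibroblasts summed to 3.49 CPM at day 0, with Acta2 and Postn at 0 reads, and to between 684 and 1081 CPM at day 6. Tagln made up most of this day 6 sum (852 CPM in Nons). Of the cell types in which Dpf1 and Dpf3 are known, neurons had 6 markers with values, and a further listed marker, Map2, was not found. The 6 summed to 232 CPM at day 0, with Dcx and Syt1 at 0 reads. At day 6 they summed to 176 CPM with Nons, 182 CPM with Smarca4.4 and 227 CPM with Smarca4.6. These sums were mostly Tubb3 and Stmn2, which differed by -0.94 and -0.34 between Nons and day 0, whereas Elavl3 went from 6.29 to 15.5 CPM, Snap25 from 2 to 101 reads and Syt1 from 0 to 448 reads. The 7 markers of cardiac and skeletal muscle summed to between 5.59 and 8.66 CPM in all libraries, but single markers moved in opposite directions. Between day 0 and Nons, Myh6 went from 0.376 to 4.90 CPM. Tnnt2 went from 1.56 to 0.240 CPM, Actn2 from 2.04 to 1.38 CPM and Myl2 from 13 to 0 reads. Myh7, Nkx2-5 and Myog differed by -0.0034, 0.19 and 0.29 on the log2 scale. In bulk RNA, fewer cells of a type and less RNA per cell cannot be told apart. Smarcc1, a core scaffold that the genotype field could refer to, was at 8.47 log2 CPM at day 0. At day 6 it was at 7.79 (Nons), 7.99 (Smarca4.4) and 8.07 (Smarca4.6), and Nons minus day 0 was -0.68 (-0.73 to -0.64). The label separates the same libraries as the day does, so a knockdown of Smarcc1 cannot be told apart from differentiation here.

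**Figure D1:**
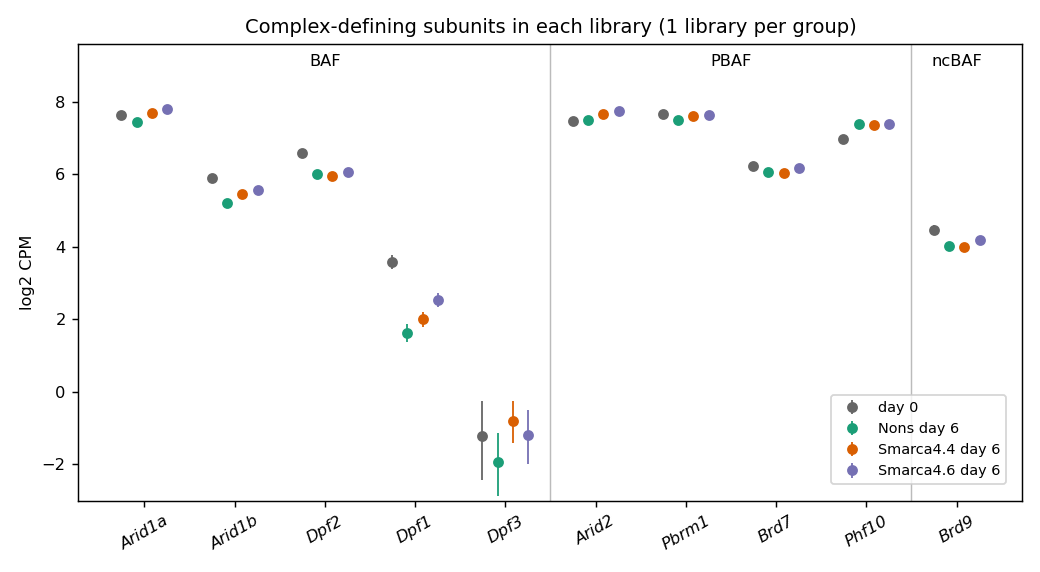
Deposited log2 CPM (vertical axis) of the 10 subunits in each library, 1 point per library, with error bars for the exact 95% counting interval. Dpf1 is the member whose day 0 point stands farthest above its day 6 points, and Dpf3 lies below 0 in all 4 libraries.

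The 4 BAF subunits that passed the filter were lower in Nons than at day 0 with counting intervals below 0, as were 40.1% of tested genes. Dpf3 was also lower, but its interval held 0. Arid1a, the main ARID1 subunit of mESCs, was at 7.65 log2 CPM at day 0, and day 6 gave 7.45 (Nons), 7.68 (Smarca4.4) and 7.80 (Smarca4.6). Its paralogue Arid1b, which takes the same place in the complex, was at 5.91, 5.20, 5.46 and 5.58 log2 CPM in the same order. For both genes Nons was the lowest of the 4 libraries. Dpf2, the DPF subunit present in most tissues, was at 6.58 log2 CPM at day 0 and, in the same order of the day 6 libraries, at 6.02, 5.96 and 6.08. Dpf1, the neuronal paralogue, was at 3.59 log2 CPM at day 0 (224 reads), 1.63 with Nons (142 reads), 2.01 with Smarca4.4 (190 reads) and 2.55 with Smarca4.6 (213 reads). All 3 day 6 libraries were below day 0 for both Dpf genes, and for Dpf1 the knockdown libraries lay between Nons and day 0. Dpf3, known from heart and skeletal muscle, was counted with only 8, 12, 27 and 16 reads in the same order, from -1.93 to -0.80 log2 CPM. These counts were above the 3 reads taken as the lowest detectable level, and the intervals of the 4 libraries overlapped.

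The PBAF subunits did not share a direction between day 0 and Nons. Arid2, the ARID subunit of PBAF, was at 7.48 log2 CPM at day 0, 7.51 with Nons, and 7.67 and 7.75 with the 2 Smarca4 hairpins. Pbrm1, a scaffold with a row of bromodomains, was at 7.68, 7.51, 7.62 and 7.64 log2 CPM, taken from day 0 through Nons and Smarca4.4 to Smarca4.6. Arid2 was highest in Smarca4.6, whereas Pbrm1 was highest at day 0. Brd7, a bromodomain subunit, was at 6.23, 6.07, 6.05 and 6.19 log2 CPM in that order. Phf10, which takes the place of the DPF subunits in PBAF, was at 6.97 log2 CPM at day 0 and at 7.39, 7.37 and 7.40 at day 6. It was the only member with each day 6 library above day 0 by more than 1.2-fold. Brd9, the bromodomain subunit of ncBAF and the target of several degrader compounds, was at 4.47 log2 CPM at day 0, and at day 6 it was at 4.03 (Nons), 4.00 (Smarca4.4) and 4.19 (Smarca4.6).

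The comparison of Nons with day 0 addresses how the mRNA levels of these subunits differ between undifferentiated and day 6 cells. Protein levels and the make-up of the complexes were not measured in these libraries. Dpf1 had the largest difference of the members, at -1.96 (95% interval -2.27 to -1.65), and 4.46% of all tested genes lay lower. Arid1b differed by -0.71 (-0.82 to -0.60), Dpf2 by -0.56 (-0.64 to -0.47), Brd9 by -0.43 (-0.61 to -0.26) and Arid1a by -0.19 (-0.25 to -0.14). Phf10 went the other way, by 0.42 (0.36 to 0.49). Pbrm1 and Brd7 were lower by small amounts, -0.17 and -0.16, and the interval of Arid2 held 0 (0.026, -0.032 to 0.084). The interval of Dpf3 also held 0 and was wide (-0.71, -2.13 to 0.78).

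Of the 10 members, 1 was at least 2-fold lower in Nons than at day 0 (Dpf1) and 0 were at least 2-fold higher, against 12.3% and 19.6% of the 13264 genes tested. At a 1.2-fold limit 5 members were lower (Arid1b, Dpf1, Dpf2, Dpf3 and Brd9) and 1 was higher (Phf10), against 35.5% and 39.6% of genes. The counting interval lay below 0 for 7 members and above 0 for 1, against 40.1% and 42.8% of genes. Whether an interval excludes 0 depends on the reads of a gene as well as on its difference. Pbrm1 (3810 reads at day 0) and Brd7 (1398 reads) were counted at differences below 1.2-fold. Here and in the other comparisons, these counts and shares therefore compare genes of unlike depth. The median over the 10 members, Dpf3 included although it is not among the tested genes, was -0.31, beside 0.031 over all tested genes. It was -0.18 with the filter raised to a mean log2 CPM of 3 and -0.19 with a pseudocount of 1 CPM. It was -0.71 over the 5 BAF subunits and -0.066 over the 4 PBAF subunits. The summed levels of the pluripotency and smooth muscle markers given above moved between the same libraries, and their part in these differences was not tested.

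**Figure D2:**
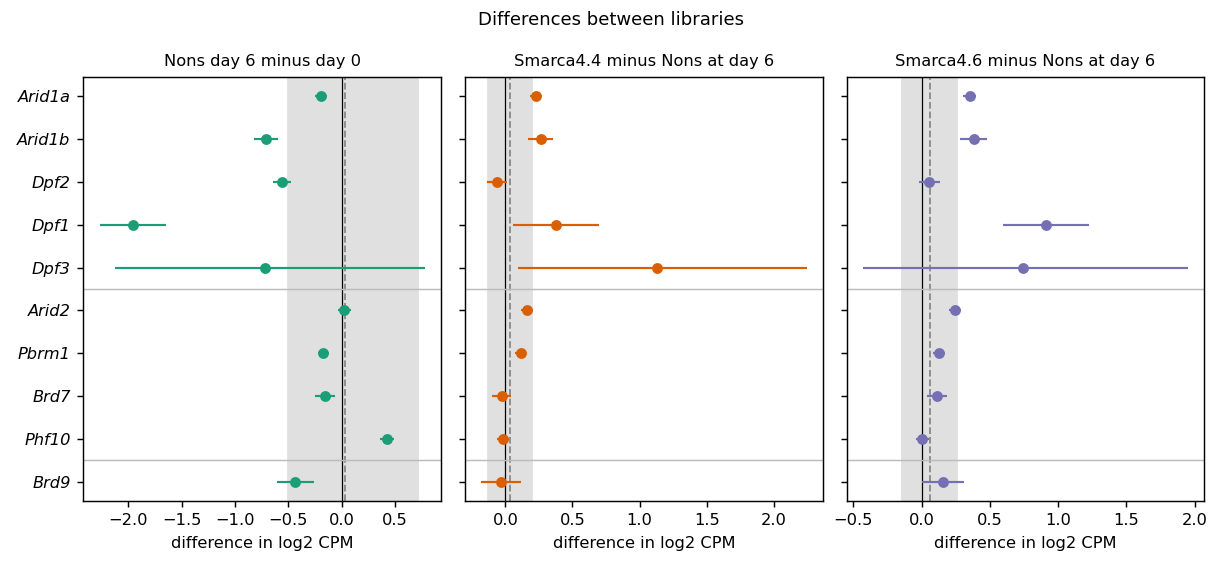
Difference in log2 CPM (horizontal axis) of each member in 3 comparisons, with bars for the exact 95% counting interval. The grey band spans the middle 50% of all tested genes and the dashed line is their median. In the left panel Dpf1, Dpf3, Arid1b and Dpf2 lie below the band, and in the other panels Arid1a, Arid1b, Dpf1 and Dpf3 lie above it.

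The comparisons of each Smarca4 hairpin with Nons address whether mRNA of the other subunits differs when that of the ATPase is lowered, and they share the Nons library. Arid1a was higher than Nons by 0.23 (0.19 to 0.27) with the Smarca4.4 hairpin and by 0.35 (0.31 to 0.40) with Smarca4.6. Arid1b was higher by 0.26 (0.17 to 0.36) and by 0.38 (0.28 to 0.48). Dpf1 was higher by 0.38 (0.056 to 0.70) and by 0.91 (0.60 to 1.23), the latter with 98.5% of tested genes lying lower. Dpf3 differed by 1.13 (0.097 to 2.24) and by 0.74 (-0.43 to 1.95), at the low counts given above. Dpf2, by contrast, differed by -0.065 (-0.14 to 0.0096) and 0.055 (-0.022 to 0.13), and both intervals held 0.

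Of the PBAF subunits, Arid2 was higher than Nons by 0.16 (0.12 to 0.21) with the first hairpin and by 0.24 (0.20 to 0.29) with the second, and Pbrm1 by 0.11 and 0.13. Phf10 differed by -0.017 (-0.063 to 0.029) and 0.0040 (-0.045 to 0.053), and both intervals held 0 within narrow bounds. Brd7 and Brd9 did not separate from Nons in Smarca4.4 (-0.027 and -0.031) and were above it in Smarca4.6 by 0.11 (0.038 to 0.19) and 0.15 (0.0019 to 0.31).

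For Smarca4.4 against Nons, 1 of 10 members was at least 2-fold higher (Dpf3) and 0 were lower, where 0.882% and 0.309% of the tested genes were. Dpf3 (12 and 27 reads) is not itself among the tested genes. At 1.2-fold, 2 members were higher (Dpf1 and Dpf3) and 0 lower, against 17.5% and 13.1% of genes, with Arid1b just under the limit. The counting interval lay above 0 for 6 members and below 0 for 0, against 34.4% and 24.3%. For Smarca4.6 against Nons, 0 members reached 2-fold in either direction, against 1.03% of genes higher and 0.799% lower. At 1.2-fold, 4 members were higher (Arid1a, Arid1b, Dpf1 and Dpf3) and 0 lower, against 24.3% and 15.2% of genes. Centred on the autosomal median the same comparison gave 18.5% of genes higher and 19.6% lower, and upper-quartile scaling gave 19.3% and 18.9%, with the count of 4 members unchanged under both. The interval lay above 0 for 7 members and below 0 for 0, against 39.6% and 24.4%. The member medians in these comparisons were 0.14 (Smarca4.4) and 0.20 (Smarca4.6), beside 0.038 and 0.064 over all tested genes. With the filter raised to a mean log2 CPM of 3, which leaves out Dpf1 and Dpf3, they were 0.048 and 0.14. Over the 5 BAF subunits they were 0.26 and 0.38, and over the 4 PBAF subunits 0.048 and 0.12. The smooth muscle and fibroblast markers summed to 1081 CPM with Nons, 804 CPM with Smarca4.4 and 684 CPM with Smarca4.6, and the neuronal markers to 176, 182 and 227 CPM. Of the first list, Tagln (-0.42 and -0.66), Acta2 (-1.03 and -1.83) and Cnn1 (-0.34 and -0.38) were below Nons with both hairpins. Col1a1 (0.11 and -0.22) and Col1a2 (0.011 and -0.25) were lower only with Smarca4.6. Postn was higher with both (0.20 and 0.65), at 16 reads in Nons. Among the neuronal markers Tubb3 was above Nons by 0.43 and 0.61, and Stmn2 differed by -0.14 and 0.35. Elavl3 (-0.36 and -0.083), Snap25 (-0.23 and -0.42) and Syt1 (-0.25 and -0.48) were below Nons with both hairpins. Dcx was also lower, with 4 and 5 reads against 9 in Nons. The part of such shifts in the members' differences was not tested.

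Between the 2 knockdown libraries, Dpf1 was the member that differed most among those that passed the filter, at -0.53 (-0.82 to -0.25) for Smarca4.4 minus Smarca4.6. Arid1a, Arid1b and Dpf2 each differed by -0.12, Arid2 by -0.079, Brd7 by -0.14 and Brd9 by -0.19 (-0.34 to -0.034). Smarca4 was lower in Smarca4.4 (-0.40), yet Arid1a, Arid1b and Dpf1 stood farther above Nons in Smarca4.6 (0.35, 0.38 and 0.91) than in Smarca4.4 (0.23, 0.26 and 0.38). All members but Dpf3 had the lower value in Smarca4.4. So did 13 of the 17 other subunits of the complexes that passed the filter, and the median of all tested genes was also below 0. Centring and upper-quartile scaling turned Pbrm1 and Phf10, which differed little, the other way. At 1.2-fold, 1 member was lower (Dpf1) and 1 higher (Dpf3), against 13.4% and 11.5% of tested genes, and the interval lay below 0 for 7 members and above 0 for 0, against 30.9% and 21.9%. The member median was -0.12, beside -0.031 over all tested genes.

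To compare genes with each other, CPM was divided by the annotated exon length in kb. At day 0 Phf10 had the highest level (25.5 CPM per kb), followed by Pbrm1 (23.2), Arid1a (17.5), Arid2 (16.6), Dpf2 (14.7), Brd7 (14.3), Arid1b (4.76), Brd9 (3.18), Dpf1 (2.24) and Dpf3 (0.102 CPM per kb). Arid1a and Arid2, and Dpf2 and Brd7, were neighbours whose counting intervals overlapped. In Nons the order was Phf10 (34.2), Pbrm1 (20.6), Arid2 (16.9), Arid1a (15.3), Brd7 (12.8), Dpf2 (9.99), Arid1b (2.92), Brd9 (2.36), Dpf1 (0.577) and Dpf3 (0.0621 CPM per kb), with no overlap between neighbours. By this measure Arid2 stood above Arid1a and Brd7 above Dpf2 in Nons, the reverse of day 0. Both knockdown libraries had the order of Nons, and the intervals of Arid2 and Arid1a overlapped in Smarca4.6. The order depended on the length used. Per kb of the longest transcript neither pair changed places in Nons, where Arid1a was at 21.40 and Arid2 at 21.36 CPM per kb, and Dpf2 was at 19.6 and Brd7 at 18.6. On that scale Dpf2 was also second at day 0, at 28.9 CPM per kb, and Brd9 was above Arid1b in Nons (3.58 and 3.24).

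**Figure D3:**
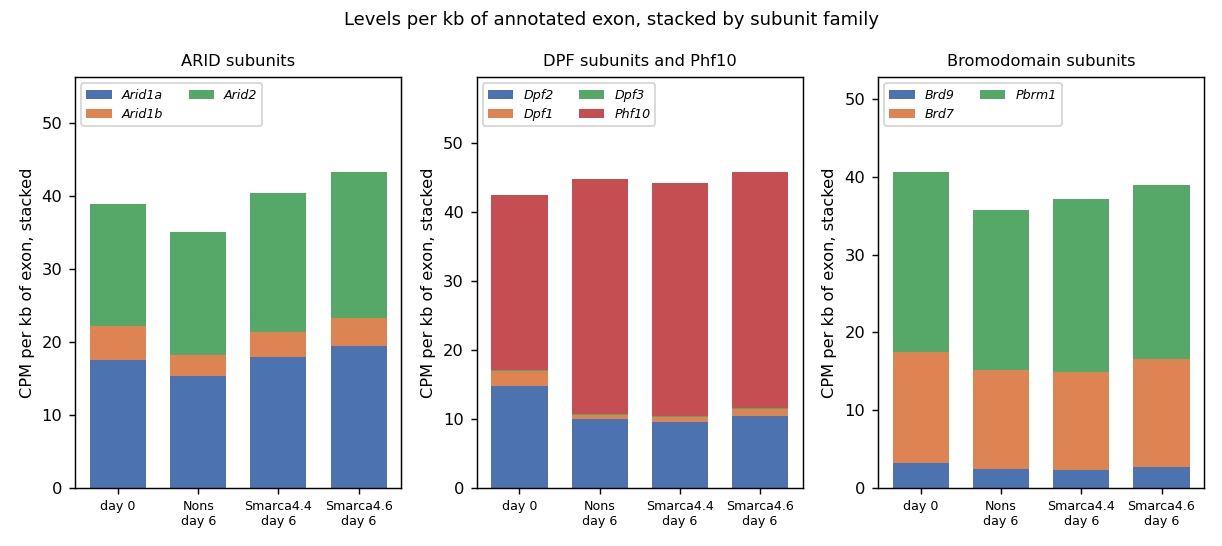
Level per kb of annotated exon (vertical axis, CPM per kb), stacked by subunit family, with 1 bar per library and no error bars. The Dpf1 part of the bar shrinks from 2.24 at day 0 to 0.577 in Nons, while the Phf10 part grows from 25.5 to 34.2.

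Paralogues that compete for the same place, and subunits that mark different complexes, were then set against each other. Per kb, the level of Arid1a was 3.67 times that of Arid1b at day 0, 5.24 times with Nons, 5.12 times with Smarca4.4 and 5.13 times with Smarca4.6. The log2 ratio was thus 0.51 (0.39 to 0.64) higher in Nons than at day 0, and it differed from Nons by -0.033 (-0.14 to 0.070) and -0.030 (-0.14 to 0.077) in the knockdown libraries. Both ARID1 genes were higher in the knockdown libraries by similar amounts. Dpf2 was at 6.28 times the sum of Dpf1 and Dpf3 at day 0, and at 15.6 times (Nons), 10.8 times (Smarca4.4) and 8.73 times (Smarca4.6) at day 6, and no interval was computed for this sum. Brd7, of PBAF, was at 4.51 times the level of Brd9, of ncBAF, at day 0 and at 5.45, 5.47 and 5.30 times in the day 6 libraries in the same order. Arid2 stood at 0.748 of the sum of the ARID1 genes at day 0 and at 0.931, 0.885 and 0.860 of it in those 3 libraries.

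Dpf1, with the largest difference between day 0 and Nons, was matched to all tested genes by the Euclidean distance between centred log2 CPM profiles over the 4 libraries. The nearest were Slc47a1 (distance 0.0951), an organic cation exporter, Dna2 (0.126), a nuclease and helicase of DNA replication, and Mycn (0.153), a MYC family factor expressed in mESCs. Mycn was at 7.45 log2 CPM at day 0, and at 5.52, 5.86 and 6.59 in the day 6 libraries in the same order. These genes were selected for this likeness, which is a description over 4 libraries.

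The promoters of the DPF genes are shown because Dpf1 had the largest difference of the members between day 0 and Nons, and Dpf2 and Dpf3 are its paralogues. They run from 250 bases before to 50 bases after the start (RefSeq, GRCm38.p6), and the capitals mark the GC box GGGCGG and the CCAAT box on either strand.
Dpf1 promoter, chr7:29303755-29304054, plus strand: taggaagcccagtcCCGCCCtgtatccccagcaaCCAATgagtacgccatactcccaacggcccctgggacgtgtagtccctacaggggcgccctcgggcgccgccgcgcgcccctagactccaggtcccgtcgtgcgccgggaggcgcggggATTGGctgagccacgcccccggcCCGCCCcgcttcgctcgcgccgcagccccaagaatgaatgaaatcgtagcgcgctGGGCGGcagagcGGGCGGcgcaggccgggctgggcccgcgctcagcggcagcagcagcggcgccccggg
Dpf2 promoter, chr19:5912822-5913121, minus strand: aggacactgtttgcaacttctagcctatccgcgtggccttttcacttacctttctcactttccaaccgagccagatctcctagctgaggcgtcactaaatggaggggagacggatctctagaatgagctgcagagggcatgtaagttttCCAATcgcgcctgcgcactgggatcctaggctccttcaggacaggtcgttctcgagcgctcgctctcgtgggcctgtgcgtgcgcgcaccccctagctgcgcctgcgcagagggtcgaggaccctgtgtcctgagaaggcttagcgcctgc
Dpf3 promoter, chr12:83487687-83487986, minus strand: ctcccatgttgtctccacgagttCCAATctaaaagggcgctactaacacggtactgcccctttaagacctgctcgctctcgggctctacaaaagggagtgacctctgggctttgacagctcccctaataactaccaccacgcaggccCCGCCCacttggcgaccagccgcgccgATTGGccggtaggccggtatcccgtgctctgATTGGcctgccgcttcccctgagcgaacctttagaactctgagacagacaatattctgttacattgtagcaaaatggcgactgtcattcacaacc
Dpf1 held 4 GC boxes and 2 CCAAT boxes, Dpf2 held 0 and 1, and Dpf3 held 1 and 3. A promoter was matched for 9 of the 10 members, all but Arid2. GGGCGG was found in 8 of these 9, against 47.1% of 16035 promoters of the same length. CCAAT was found in 3 of 9, the DPF genes, against 38.8%. TATAAA was found in 0 of 9 (12.9% of all promoters), and CACGTG in 1, Pbrm1 (8.03%). GC content ranged from 55.3% (Dpf3) to 87.0% (Phf10), beside a median of 56.7% over all promoters. These are matches of letters and were not tested as binding sites.

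The rest of the complex gives the setting for these values. Of 19 other subunits listed besides Smarca4, 18 were found and 17 passed the filter. Among the 17, 3 were at least 2-fold higher in Nons than at day 0 and 1 was at least 2-fold lower, against 19.6% and 12.3% of tested genes. Those higher were Bcl11a (4.02), Bcl11b (2.25) and Bcl7c (1.44), and the lower was Smarca2 (-2.41, -2.68 to -2.14). Smarca2, the ATPase that can replace Smarca4, was at 4.28 log2 CPM at day 0 and at 1.87 (Nons), 2.08 (Smarca4.4) and 2.00 (Smarca4.6) at day 6, and its intervals against Nons held 0 in both knockdown libraries. Of the same 17, 0 were at least 2-fold different from Nons in either knockdown library. Few tested genes were: 0.882% higher and 0.309% lower with Smarca4.4, and 1.03% and 0.799% with Smarca4.6. The median differences of the 17 were 0.17 for Nons minus day 0, and -0.0050 (Smarca4.4) and 0.13 (Smarca4.6) against Nons. Over all tested genes the medians were 0.031, 0.038 and 0.064. The neuronal partners of Dpf1 and Dpf3 were low. Ss18l1 was at 3.48 log2 CPM at day 0 and at 2.92, 2.73 and 2.72 at day 6, in the same order of libraries. Smarcd3 was at 2.90, 2.57, 2.59 and 2.74 log2 CPM from day 0 to Smarca4.6. Actl6b had 3 reads with Smarca4.4 and 0 reads in the other libraries. Gltscr1 (Bicra), the ncBAF partner of Brd9, was at 2.81 log2 CPM at day 0 and at 3.39, 3.46 and 3.61 in the day 6 libraries. It was thus 0.58 (0.30 to 0.87) higher in Nons than at day 0, where Brd9 was lower.

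**Figure D4:**
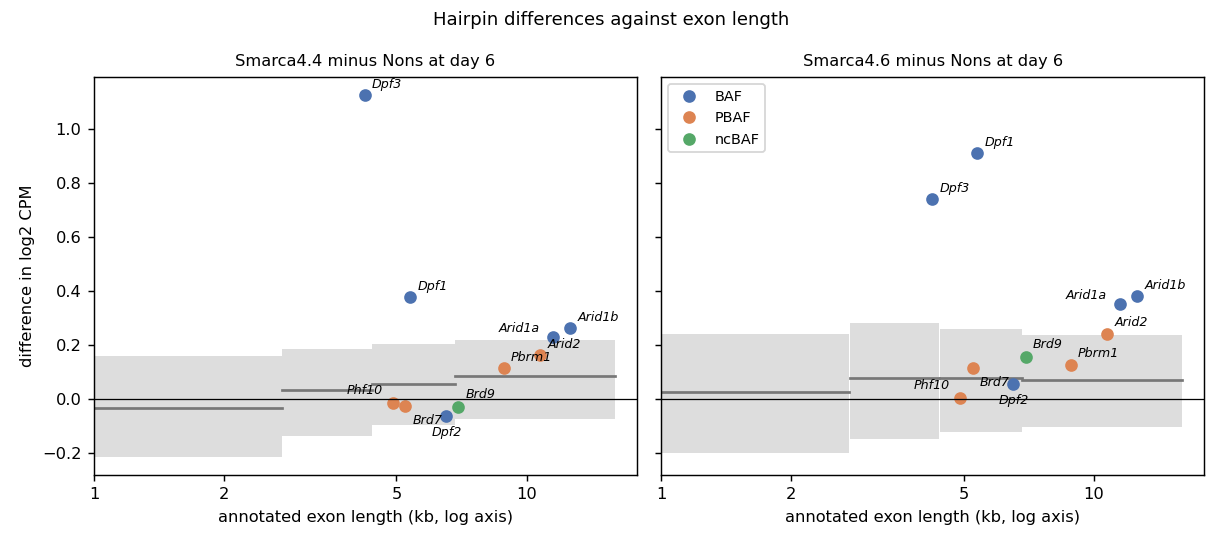
Difference from Nons in log2 CPM (vertical axis) of each member against its annotated exon length (horizontal log axis, kb), coloured by complex, with grey boxes for the middle 50% of tested genes in each length quartile, drawn between 1 and 16 kb, and a line at their median. Arid1a and Arid1b, the longest members, lie above the box of the longest quartile in both panels.

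The ARID genes have the longest exons of the members, whereas Dpf1 (5.38 kb) and Dpf3 (4.23 kb), with the largest differences from Nons, are shorter. Arid1b (12.6 kb), Arid1a (11.5 kb), Arid2 (10.7 kb), Pbrm1 (8.85 kb) and Brd9 (6.95 kb) fell in the longest quartile of tested genes, whose median difference was 0.084 (Smarca4.4) and 0.070 (Smarca4.6), against -0.033 and 0.026 in the shortest quartile. GC content of the transcript also went with the difference: the medians were 0.13 and 0.098 in the quartile of lowest GC, which holds Pbrm1 and Phf10, and -0.053 and 0.025 in that of highest GC, which holds Arid1a and Dpf1. Measured against the median of its own length quartile, a choice made after seeing the data, the median member stood at 0.054 in Smarca4.4 (0.10 against all tested genes) and at 0.13 in Smarca4.6 (0.13 against all). Against its own GC quartile it stood at 0.043 and 0.13. The differences of Arid1a and Arid1b from Nons were larger than the medians of their chromosomes, which were 0.055 and 0.057 on chromosome 4 and -0.0035 and 0.048 on chromosome 17. With Smarca4.4, Dpf2, Brd7, Phf10 and Brd9 were below the medians of theirs (Brd9 at -0.031 against 0.11 on chromosome 13). With Smarca4.6 only Phf10 was (0.0040 against 0.049). The part of chromosome-wide shifts in these differences was not tested.

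The members lie on 9 chromosomes in mm10. The BAF genes are Arid1a at chr4:133679008-133756769, Arid1b at chr17:4994332-5347656, Dpf1 at chr7:29303951-29317588, Dpf2 at chr19:5896516-5913010 and Dpf3 at chr12:83213745-83487716. The PBAF genes are Arid2 at chr15:96287518-96404992, Pbrm1 at chr14:31019138-31121592, Brd7 at chr8:88331039-88362194 and Phf10 at chr17:14945009-14961273, and Brd9 is at chr13:73937838-73960894. Phf10 shares 470 bp of exon, 9.56% of its exon length, with 1600012H06Rik on the opposite strand, and reads there cannot be told apart because the strand setting of the counting is not given in the sources used here. The other members share at most 1.79% of their exon length with another gene. No stretch of 75 bases was shared between members.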

How the data were processed

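The authors trimmed paired-end 75 bp reads with trim_galore and aligned them to mm10 with strain-specific positions masked. The submitters' processing notes name bcl2fastq and HISAT2, and the methods name hisat2 or tophat. The authors computed expression per gene in SeqMonk, and the deposited values are log2 CPM with both alleles combined. Normalization is to the library total only, so a shift in a few abundant genes moves every other gene.

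Back-transformed values were whole multiples of 1 step per library, with 0.9 of that step standing for 0 reads. Reads and totals were recovered from the step, with 100% of values up to 1000 reads whole within 0.02 reads and from 99.73% to 99.95% of all nonzero values. Totals were 18599402 (day 0), 45759793 (Nons), 47143727 (Smarca4.4) and 36495582 (Smarca4.6) reads, and 3 reads, the lowest level taken as detectable, equal 0.161, 0.0656, 0.0636 and 0.0822 CPM. Because the deposited unit is log2, no count model was fitted.

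Differences are between deposited log2 CPM values, with exact (Clopper-Pearson) 95% intervals of the ratio of recovered reads, and a conditional exact interval for a ratio of 2 genes. They cover counting error only, compare libraries rather than conditions, and take reads as independent. Whether both mates of a read pair were counted is not given in the sources used here. If they were, reads are not independent and the intervals are too narrow. Genes with a mean log2 CPM of at least 0 were tested (13264), and differences of 1.2-fold and 2-fold were counted. Exon lengths came from GENCODE vM21 on GRCm38, matched for 90.0% of tested genes. Scripts used Python 3.11.15, numpy 2.4.6, pandas 2.3.3, scipy 1.17.1 and matplotlib 3.10.9. The intervals were run on simulated reads that held only the counting error they assume. That run had no spread between libraries, so it cannot show whether the intervals cover such spread.

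Groups came from the titles. Named genes were all 10 members, Smarca4, other subunits at least 2-fold different in any comparison, the neuronal partners (Actl6b, Ss18l1, Smarcd3), the ncBAF partners (Gltscr1, with Bicral not found in the table), and the 3 genes nearest in profile to the member with the largest difference between Nons and day 0. Smarcc1 was added for the genotype label after its values were seen. Members and lists were chosen with earlier results of these data known. Alternatives were a stricter filter, no filter, a pseudocount, centring on the autosomal median, upper-quartile scaling and transcript length in place of exon length. Allele-specific values were not analysed here.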

Additional observations from a re-analysis of the deposited data

How the results depend on the processing

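No paired analysis was possible because the groups hold only 1 library each, and for the same reason no library could be left out. Of 110 values that answer a comparison, 98 kept their direction and either stayed within their interval or, for counts of members and ratios with no interval, changed by no more than 1.5 times. For the median of a set, that interval came from the ranked values of its genes and was not a counting interval. It was wide for the members, from -0.71 to 0.026 (Nons minus day 0) and from -0.031 to 0.38 (Smarca4.4 minus Nons). Staying within it is therefore a weak check. Among the 98, the pseudocount took the members 1.2-fold lower in Nons than at day 0 from 5 to 4 and those higher in Smarca4.6 than Nons from 4 to 3. The stricter filter took the member median for Smarca4.4 minus Nons from 0.14 to 0.048 and that for Nons minus day 0 from -0.31 to -0.18, and the pseudocount took the latter to -0.19. With the filter raised to a mean of 3, which leaves out Dpf1 and Dpf3 by construction, the members at least 2-fold different came to 0 for Nons minus day 0 and to 0 for Smarca4.4 minus Nons. Those at least 1.2-fold lower came to 3 for Nons minus day 0. Those at least 1.2-fold higher came to 0 for Smarca4.4 and 2 for Smarca4.6 minus Nons, and between the knockdown libraries 0 were 1.2-fold higher and 0 lower. The same filter turned the median of the other subunits for Smarca4.4 minus Nons to 0.0030. With a pseudocount of 1 CPM, which shrinks low values, 0 members were 2-fold different for Smarca4.4 minus Nons and 0 were 1.2-fold higher for Smarca4.4 minus Smarca4.6. Smarca4 in Smarca4.6 minus Nons became -0.46 when centred and -0.45 with upper-quartile scaling.

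Of 170 values for single genes and background shares, 147 were the same, 15 moved and 8 changed sign, none of which had reached 1.2-fold. Centring turned Arid2 in Nons minus day 0 to -0.024, Dpf2 in Smarca4.6 minus Nons to -0.0061, Phf10 in Smarca4.6 minus Nons to -0.057, and Pbrm1 and Phf10 in Smarca4.4 minus Smarca4.6 to 0.020 and 0.012. Upper-quartile scaling turned the last 3 to -0.048, 0.014 and 0.0066. Without a filter, which admits genes of a few reads, the share of genes at least 1.2-fold lower was 55.2% for Nons minus day 0 (35.5% as reported) and 41.8% for Smarca4.4 minus Smarca4.6 (13.4%), and the share higher was 49.3% for Smarca4.6 minus Nons (24.3%). With the stricter filter 7.55% were 1.2-fold higher between the knockdown libraries (11.5%). Centring each member on its exon length or GC quartile, chosen after seeing the data, turned no member median, but took that for Smarca4.4 minus Nons from 0.10 above the background to 0.054 and 0.043. Depth limits Dpf3, with at most 27 reads, and Dpf1 more than the other members.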
